A study of Mus musculus with 10 samples.

Results

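The genes described here build and carry the 2 iron cofactors of the cell, iron-sulfur clusters and heme. They are 31 genes taken by symbol from a count table of 55492 symbols, and all 31 had a row and passed the low-count filter that left 21010 genes for testing. The list holds 14 genes of mitochondrial iron-sulfur cluster assembly, 5 of the cytosolic assembly pathway, 7 heme enzymes and 5 mitochondrial transporters and carrier-linked proteins. RNA-seq had been done on mouse splenic B cells with and without Pcbp1, an RNA-binding protein that is also known as an iron chaperone. Naive B cells on day 0 came from WT mice (2 libraries) and from mice with floxed Pcbp1 (fl/fl) and Mb1-Cre, called KO (2 libraries). Induced germinal center B cells, called iGCB, were taken on day 4 of culture in the 40-LB system, in which fibroblast feeders present CD40 ligand and BAFF, from WT (3 libraries) and KO (3 libraries). Mb1-Cre is driven by the Cd79a locus and is known to act from early B cell precursors on. The submitters speak of WT and KO libraries as pairs without saying what a pair shares. No strain or age is named, and nothing says if the WT mice had Cre or if every library is a separate animal, so p-values measure the spread between these libraries only.

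Iron-sulfur clusters are put together in mitochondria: a cysteine desulfurase supplies sulfur, a scaffold protein holds the growing cluster, a ferredoxin supplies electrons, and chaperones and carrier proteins pass the cluster on to enzymes. A separate set of proteins assembles clusters for cytosolic and nuclear enzymes, among them DNA polymerases and helicases. Heme is made by a chain of enzymes that starts in the mitochondrion, runs through the cytosol and ends in the mitochondrion, where ferrochelatase inserts iron into protoporphyrin. Both pathways draw on iron brought in by mitochondrial carriers. Heme synthesis is best known from erythroid cells, but every cell with a respiratory chain makes both cofactors.

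The libraries held 33400672 to 63576147 counts. Pcbp1 was at 83.9 to 327 CPM (counts relative to TMM-scaled library size) in the 5 WT libraries and at 0.448 to 4.33 CPM in the 5 KO libraries, so each library matched its genotype label. The 6 B cell markers summed to 3280 to 7790 CPM, and 5 germinal center markers to 298 to 515 CPM in naive and 1610 to 2430 CPM in iGCB libraries. Of the B cell markers, Cd79a was at 1387 and 1173 CPM in naive WT and 432 and 414 CPM in naive KO libraries. In iGCB cells it was at 773 to 822 CPM in WT and 342 to 438 CPM in KO. The reason was not tested. Cd79a and Pcbp1 levels differ together in each KO comparison, and their effects cannot be told apart. By Xist and Y-linked genes, replicate 1 of each naive genotype was female and all other libraries, 8 in number, were male. Naive KO 2 stood apart in its markers of other spleen cells. Its 14 myeloid markers summed to 102 CPM, against 412 to 864 CPM in the other naive libraries. Its 11 erythroid markers summed to 31.8 CPM, against 109 to 230 CPM. Without this library 0 of the 31 genes passed in naive KO against WT, as with it. The 12 fibroblast markers, which feeder cells could bring, summed to 1.7 to 13.9 CPM in naive and 31 to 76.4 CPM in iGCB libraries. In bulk RNA, fewer cells of a type and less RNA per cell cannot be told apart.

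Levels were compared between genes per kb of annotated exon (CPM per kb), since a longer transcript yields more reads. The length was that of all annotated exons of a gene merged, which can exceed the length of the transcript made. Order and ratios between genes depend on this length. In naive WT cells the lowest of the list were Fdx1, a ferredoxin, at 0.612 CPM per kb, and Nubpl at 0.696. Nubpl is a factor for the clusters of respiratory complex I. The highest was Hspa9, the mitochondrial heat shock chaperone, at 51.9 CPM per kb. Slc25a37, mitoferrin-1, an iron carrier of the inner mitochondrial membrane, came next to the top at 43.0 ± 7.98 CPM per kb (SD, n = 2). In iGCB WT cells Hspa9 was again highest at 80.1 CPM per kb. It was followed by Tmem14c, a porphyrin transporter, at 58.1, then by Cpox, coproporphyrinogen oxidase, at 44.6 ± 4.33 (SD, n = 3), and Iscu, the scaffold, at 39.9 ± 9.59 (SD, n = 3). The last 2 are neighbours whose spreads overlap, as do those of Hspa9 (SD 20.1) and Tmem14c (SD 9.0) in iGCB WT cells. In naive WT cells the spreads of Hspa9 (SD 3.9) and Slc25a37 overlap too. The order had changed for several genes between the stages, whereas WT and KO means of a stage lay close together for most.

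**Figure D1:**
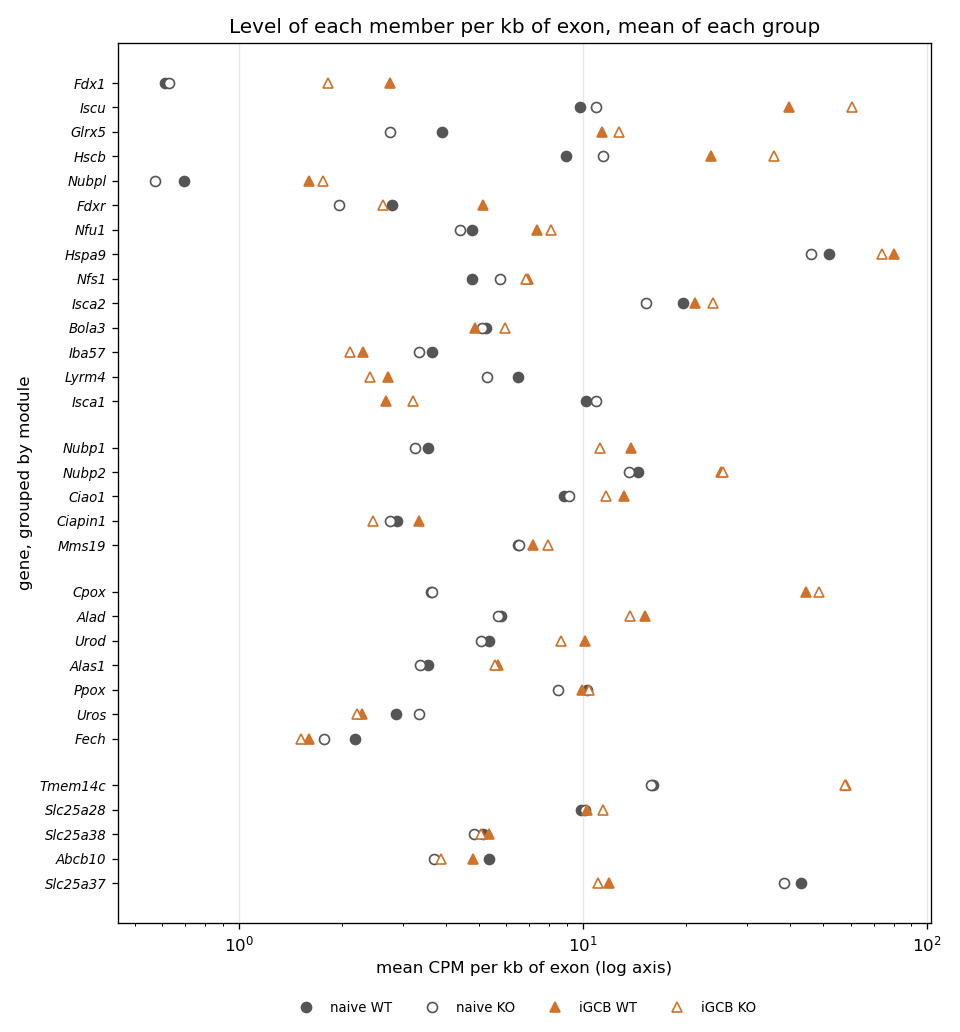
Mean level of each of the 31 genes on a log axis of CPM per kb of exon, for naive WT, naive KO, iGCB WT and iGCB KO cells (circles naive, triangles iGCB, filled WT, open KO). Cpox moves from 3.62 CPM per kb in naive WT to 44.6 in iGCB WT, and Slc25a37 from 43.0 to 12.0.

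The first comparison set iGCB against naive cells, which asks how the 2 pathways differ between a resting B cell and one that has been driven to a germinal center-like state. In WT cells 17 of the 31 genes rose, 4 fell and 10 did not pass the threshold (edgeR quasi-likelihood test, Benjamini-Hochberg adjusted p under 0.05 over all genes tested). Of all genes tested 24.7% were higher and 31.7% lower by the same rule. Among the 10368 genes with a mean level at or above that of the lowest member, 36.5% were higher and 28.2% lower in WT cells, and 36.6% and 27% in KO cells. The median log2 fold change of the 31 genes was 0.58, and that of all genes tested was -0.25. In KO cells 15 rose and 4 fell, where 24.8% of all genes were higher and 31.4% lower, with medians of 0.43 and -0.26. The changes of 18 genes passed in the same direction in WT and in KO cells, 14 of them upward, and of all genes tested 47.3% did. The WT and KO comparisons each used their own libraries at both stages. Under every alternative setting and every left-out library, 12 of the 21 WT and 10 of the 19 KO calls held, and the others are given with their losses below. Day, culture, feeders and cell state differ together between the stages and cannot be told apart.

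**Figure D2:**
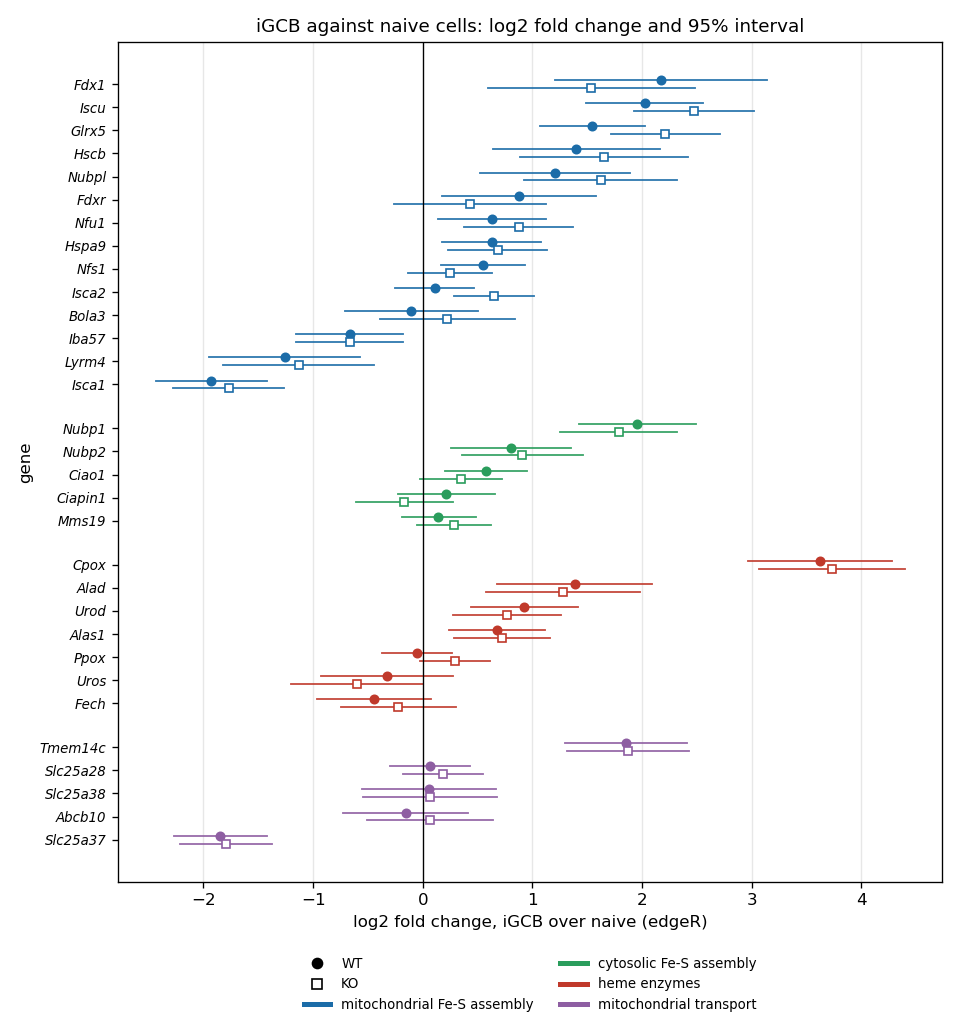
Log2 fold change of iGCB over naive cells for each gene, in WT (filled circles) and KO cells (open squares), with 95% intervals from edgeR and colours for the 4 groups of genes. Cpox lies farthest right at 3.62 in WT and 3.73 in KO, and Isca1, Slc25a37, Lyrm4 and Iba57 lie left of 0 in both.

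All 8 genes of the core mitochondrial machinery passed the threshold between stages in WT cells, 7 upward and 1 downward, and 3 of these calls (Nfs1, Hspa9 and Fdxr) were lost when single libraries were left out. Iscu is the scaffold on which the cluster is built. It was at 24.8 and 17.9 CPM in naive WT and 27.0 and 20.5 CPM in naive KO cells, against 75.2, 111 and 74.3 CPM in iGCB WT and 130, 144 and 122 CPM in iGCB KO cells. Every iGCB library was above every naive library. The log2 fold change was 2.02 (SE 0.24, adjusted p = 6.32e-05, edgeR) in WT and 2.47 (SE 0.25, adjusted p = 2.04e-05, edgeR) in KO cells. Nfs1, the cysteine desulfurase that supplies the sulfur, moved less, from 15.8 to 18.6 CPM in naive WT to 23.1 to 26.9 CPM in iGCB WT libraries. Its log2 fold change was 0.55 (SE 0.18) in WT, past the threshold at an adjusted p of 0.0209 (edgeR), and 0.25 (SE 0.17, adjusted p = 0.239, edgeR) in KO cells. The WT call of Nfs1 was lost without naive WT 2 (0.43, adjusted p = 0.126, edgeR), iGCB WT 2 (adjusted p = 0.0508) or iGCB WT 3 (adjusted p = 0.0522).

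Lyrm4, the small protein that holds Nfs1 in a stable complex, went the other way. It was at 13.5 and 13.6 CPM in naive WT and 14.4 and 7.57 CPM in naive KO cells. In iGCB cells it was at 6.22, 5.04 and 5.72 CPM in WT and 3.99, 5.64 and 5.41 CPM in KO. All iGCB libraries lay below all naive ones, with naive KO 2 closest. Lyrm4 fell by 1.26 (SE 0.31, adjusted p = 0.00604, edgeR) in WT and by 1.13 (SE 0.31, adjusted p = 0.0106, edgeR) in KO cells on the log2 scale. Without naive KO 1 the KO value was -0.58 with an adjusted p of 0.189 (edgeR), so that call rests on 1 library. The ratio of Iscu to Lyrm4 per kb went from 1.51 ± 0.36 (SD, n = 2) in naive WT to 15 ± 5.25 (n = 3) in iGCB WT, and from 2.2 ± 0.56 (n = 2) to 25.8 ± 4.95 (n = 3) in KO cells. The 3 partners of 1 enzyme complex thus held very different proportions of transcript at the 2 stages.

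Which ferredoxin serves cluster assembly in these cells was not tested. Fdx2, a ferredoxin of the assembly pathway outside the list, had group means of 0.1955 to 0.5468 CPM. The ferredoxin Fdx1 had the lowest level of the list in naive cells, at 1.3 to 2.6 CPM. It reached 7.77 to 9.67 CPM in iGCB WT and 4.27 to 7.66 CPM in iGCB KO cells. Its log2 fold changes were 2.17 (SE 0.44) in WT and 1.54 (SE 0.43) in KO, both past the threshold, though the KO call was lost without naive KO 1 (1.13, adjusted p = 0.0775, edgeR). Fdxr, the reductase that loads Fdx1 with electrons, rose by 0.88 (SE 0.32, adjusted p = 0.0352, edgeR) in WT cells, and its value in KO cells was 0.43 (SE 0.32, adjusted p = 0.26, edgeR). The WT call of Fdxr was lost without naive WT 2 (0.64, adjusted p = 0.189, edgeR), iGCB WT 2 (adjusted p = 0.0552) or iGCB WT 3 (0.63, adjusted p = 0.134). The co-chaperone Hscb and the chaperone Hspa9, which together release the finished cluster from the scaffold, both rose in WT, by 1.40 (SE 0.34) and 0.63 (SE 0.20), and in KO, by 1.65 (SE 0.35) and 0.68 (SE 0.20). The WT value of Hscb was 2.11 without naive WT 1 and 0.93 without naive WT 2, past the threshold in each. The WT call of Hspa9 was lost without naive WT 1 (0.55, adjusted p = 0.0944, edgeR) or iGCB WT 3 (0.40, adjusted p = 0.0659), and its KO call without naive KO 2 (adjusted p = 0.0993) or iGCB KO 3 (adjusted p = 0.0501). A processed pseudogene of Hspa9 lies on chromosome X, so reads of Hspa9 could be shared with it.

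Glrx5, the glutaredoxin that relays clusters from the chaperones to late acceptors, was at 8.85 to 15.2 CPM in the 4 naive libraries, 35.9 to 47.7 CPM in iGCB WT and 41.7 to 56.2 CPM in iGCB KO cells. The stages did not overlap. Its log2 fold change was 1.54 (SE 0.22, adjusted p = 0.000187, edgeR) in WT and 2.21 (SE 0.22, adjusted p = 2.26e-05, edgeR) in KO.

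The 6 late-acting genes were divided, with 2 that rose, 2 that fell and 2 that did not pass in WT cells. Isca1 and Isca2 form a pair that builds the larger type of cluster. Isca1 was at 81.3 and 137 CPM in naive WT and 97.7 and 136 CPM in naive KO cells, against 26.1, 32.6 and 27.0 CPM in iGCB WT and 31.1, 37.2 and 34.4 CPM in iGCB KO. It fell by 1.93 (SE 0.23, adjusted p = 6.12e-05, edgeR) in WT and by 1.77 (SE 0.23, adjusted p = 0.000113, edgeR) in KO on the log2 scale, with no overlap between the stages. Its partner Isca2 was at 35.4 and 36.7 CPM in naive WT and 36.6 to 41.4 CPM in iGCB WT, and these groups overlapped. The log2 fold change of Isca2 was 0.11 (SE 0.16, adjusted p = 0.591, edgeR) in WT and 0.65 (SE 0.17, adjusted p = 0.007, edgeR) in KO, where the call was lost without naive KO 2 (0.52, adjusted p = 0.086, edgeR). Per kb, Isca1 stood at 0.517 ± 0.17 (SD, n = 2) of Isca2 in naive WT and at 0.126 ± 0.0096 (n = 3) in iGCB WT cells. In CPM the means of Isca1 and Isca2 were 109 and 36.1 in naive WT and 28.6 and 38.9 in iGCB WT. Iba57, which acts with this pair, fell by 0.66 (SE 0.22) in both genotypes, at adjusted p of 0.0252 in WT and 0.0254 in KO (edgeR), and these calls were lost under several settings given with the sensitivity of the results.

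Of the factors that deliver clusters to their final enzymes, Nfu1, which serves lipoate synthase and respiratory enzymes, rose by 0.63 (SE 0.22) in WT and 0.88 (SE 0.23) in KO. Its WT call was lost without naive WT 2 (0.46, adjusted p = 0.186, edgeR), iGCB WT 2 (adjusted p = 0.0587) or iGCB WT 3 (0.44, adjusted p = 0.108). Nubpl, the complex I factor, rose by 1.21 (SE 0.31) and 1.62 (SE 0.32). Bola3, a partner of Glrx5 and Nfu1, had log2 fold changes of -0.10 (SE 0.28) and 0.23 (SE 0.28) and did not pass in either.

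The cytosolic pathway showed 3 genes that rose in WT, 2 in KO and 0 that fell. Nubp1 and Nubp2 form the scaffold on which cytosolic clusters are built. Nubp1 was at 9.97 to 13.7 CPM in the 4 naive libraries, 39.3, 47.2 and 64.1 CPM in iGCB WT and 38.5, 43.3 and 40.7 CPM in iGCB KO cells. It rose by 1.96 (SE 0.24, adjusted p = 7.92e-05, edgeR) and by 1.79 (SE 0.24, adjusted p = 0.000146, edgeR). The exons of Tvp23a, on the opposite strand, cover 36.87% of the exon length of Nubp1, and no source names the strand setting of the counting. Tvp23a itself had group means of 1.6 to 3.07 CPM at both stages, far below Nubp1. Nubp2 rose by 0.81 (SE 0.25) in WT and 0.91 (SE 0.25) in KO. The WT value of Nubp2 was 1.26 without naive WT 1, and the call was lost without naive WT 2 (0.46, adjusted p = 0.152, edgeR) or iGCB WT 3 (adjusted p = 0.0596). The KO call was lost without naive KO 2 (adjusted p = 0.075, edgeR). The ratio of Nubp1 to Nubp2 per kb was 0.27 ± 0.12 (SD, n = 2) in naive WT and 0.545 ± 0.074 (n = 3) in iGCB WT cells. In CPM the means of Nubp1 and Nubp2 were 12.9 and 28.3 in naive WT and 50.2 and 49.5 in iGCB WT. Which of the pair was more abundant in iGCB WT cells thus depends on the exon length used.

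Ciao1 and Mms19 belong to the complex that hands clusters to cytosolic and nuclear enzymes. Ciao1 rose by 0.58 (SE 0.17, adjusted p = 0.0145, edgeR) in WT, a call lost without naive WT 2 (adjusted p = 0.0633), and its KO value was 0.35 (SE 0.17, adjusted p = 0.096, edgeR). Mms19, at 59.4 to 86.6 CPM in all 10 libraries, had log2 fold changes of 0.14 (SE 0.15) and 0.28 (SE 0.15), neither past the threshold. Ciapin1, the electron carrier of the pathway, had values of 0.21 (SE 0.20) and -0.17 (SE 0.20).

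Among the 7 heme enzymes 4 rose in both genotypes and 3 did not pass in either. Of these 3, Fech passed in 1 of 6 alternative settings in WT cells. In KO cells Uros passed in 2 of 6 and Ppox in 1 of 6. Leaving out 1 library gave WT values of -0.812 to 0.032 for Fech. The largest change of the whole list was that of Cpox, which turns coproporphyrinogen into protoporphyrinogen in the space between the mitochondrial membranes. Cpox was at 31 and 17.3 CPM in naive WT and 30.2 and 18.4 CPM in naive KO cells, against 298, 326 and 269 CPM in iGCB WT and 316, 341 and 312 CPM in iGCB KO. The lowest iGCB library was far above the highest naive one. Cpox rose 12.3-fold in WT (log2 fold change 3.62, SE 0.30, 95% interval 2.96 to 4.28, adjusted p = 5.54e-06, edgeR) and 13.3-fold in KO (3.73, SE 0.30, adjusted p = 5.11e-06, edgeR). The female naive library was the higher one in each genotype. Against the male naive library alone the log2 fold change was 4.11 in WT and 4.14 in KO cells. Against the female one alone it was 3.257 in WT and 3.421 in KO cells. Gpr15 shares 3.06% of the exon length of Cpox on the opposite strand and had group means of 0.0252 to 23.6 CPM.

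Cpox made up 15.1% of the summed CPM of the 7 heme enzymes in naive WT (11.6% and 18.6% in the single libraries) and 64.3% in iGCB WT cells (60.4% to 66.3%). In KO cells the shares were 16.7% and 67.1%. Without Cpox the other 6 enzymes summed to 134 ± 3.54 CPM (SD, n = 2) in naive WT and 165 ± 11.5 CPM (n = 3) in iGCB WT cells. Most of the added heme enzyme transcript in iGCB cells was therefore that of Cpox.

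Alas1, which catalyses the first and usually rate-limiting step outside erythroid cells, rose by 0.68 (SE 0.20, adjusted p = 0.0137, edgeR) in WT and 0.72 (SE 0.20, adjusted p = 0.00989, edgeR) in KO. These calls were lost without naive WT 2 (0.43, adjusted p = 0.121, edgeR) and without naive KO 2 (0.60, adjusted p = 0.0906). Alad, which joins the products of that step into the first pyrrole, went from 13.1 and 8.57 CPM in naive WT to 19.6, 29.5 and 35.9 CPM in iGCB WT libraries. It rose by 1.38 (SE 0.32) in WT and 1.28 (SE 0.32) in KO. Urod, which trims uroporphyrinogen just before the Cpox step, rose by 0.93 (SE 0.22) and 0.77 (SE 0.22). Without naive KO 2 the KO values of Alad and Urod were 0.96 and 0.72 and missed the threshold at adjusted p of 0.0602 and 0.077 (edgeR). Uros, which closes the porphyrin ring, had values of -0.33 (SE 0.28) and -0.60 (SE 0.27). Ppox, the enzyme after Cpox, was at 36.4 to 49.1 CPM in all 10 libraries, with values of -0.053 (SE 0.14) and 0.29 (SE 0.14). B4galt3 shares 17.52% of the exon length of Ppox on the opposite strand, at 17.9 to 30.7 CPM in the group means. Fech, which inserts the iron and itself carries an iron-sulfur cluster, had values of -0.45 (SE 0.24, adjusted p = 0.126, edgeR) and -0.22 (SE 0.24, adjusted p = 0.439, edgeR). The enzymes on either side of Cpox in the pathway thus differed in the fit of all groups: Urod rose by less than 2-fold, and Ppox did not pass.

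The 5 transport genes held 1 that rose, 1 that fell and 3 that did not pass in each genotype. Tmem14c, which brings the product of Cpox into the mitochondrial matrix, was at 18.7 and 10.5 CPM in naive WT and 15.3 and 13.6 CPM in naive KO cells, against 48.8, 47.8 and 62.6 CPM in iGCB WT and 51.2, 58.1 and 49.7 CPM in iGCB KO. It rose by 1.86 (SE 0.25, adjusted p = 0.000149, edgeR) in WT and 1.87 (SE 0.25, adjusted p = 0.000147, edgeR) in KO, and the stages did not overlap.

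Slc25a37, mitoferrin-1, known as the main mitochondrial iron carrier of erythroid cells, went down. It was at 293 and 225 CPM in naive WT and 239 and 224 CPM in naive KO cells, against 64.1, 69.0 and 83.0 CPM in iGCB WT and 73.5, 53.6 and 73.1 CPM in iGCB KO. It fell by 1.84 (SE 0.19, adjusted p = 2.48e-05, edgeR) and by 1.80 (SE 0.19, adjusted p = 3.09e-05, edgeR) on the log2 scale. Its relative Slc25a28, mitoferrin-2, the carrier of most other tissues, was at 32.7 to 43.8 CPM in all 10 libraries. The log2 fold changes of Slc25a28 were 0.063 (SE 0.17, adjusted p = 0.76, edgeR) and 0.18 (SE 0.17, adjusted p = 0.368, edgeR). Per kb, Slc25a37 was at 4.35 ± 0.094 (SD, n = 2) times Slc25a28 in naive WT and 1.17 ± 0.19 times (n = 3) in iGCB WT cells, and at 3.81 ± 0.10 (n = 2) and 0.968 ± 0.18 times (n = 3) in KO cells. Per kb the 2 carriers were thus near parity in iGCB cells. In CPM the iGCB WT means were 72.0 for Slc25a37 and 38.6 for Slc25a28.

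Markers of other spleen cells moved with the stage as well. The 14 myeloid markers summed to 412 and 647 CPM in naive WT and 864 and 102 CPM in naive KO cells, against 23.7 to 39.9 CPM in iGCB WT and 39.3 to 76.9 CPM in iGCB KO libraries. The 11 erythroid markers summed to 109 and 163 CPM in naive WT and 230 and 31.8 CPM in naive KO cells, against 25.9 to 26.8 CPM in iGCB WT and 39.8 to 42.1 CPM in iGCB KO libraries. The erythroid sum of each iGCB KO library was thus above that of naive KO 2. Nearly all of the iGCB sum was Hemgn, which went the other way, from 3.71 and 4.99 CPM in naive WT to 25.1 to 25.8 CPM in iGCB WT and from 3.09 and 1.28 CPM to 37.4 to 38.8 CPM in KO libraries. The other 10 erythroid markers summed to 30.5 to 227 CPM in naive and 0.418 to 3.31 CPM in iGCB libraries. Of the 11, Hba-a1, Hba-a2, Slc4a1 and Epb42 were at 0 in iGCB WT and Hba-a2 and Slc4a1 in iGCB KO cells. The part of these cells in the fall of Slc25a37 was not tested. Slc25a38, the mitochondrial glycine importer that feeds the Alas1 step, had values of 0.060 (SE 0.28) and 0.064 (SE 0.28). Abcb10, an inner membrane transporter that stabilises mitoferrin-1, had values of -0.15 (SE 0.26) and 0.065 (SE 0.26).

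**Figure D3:**
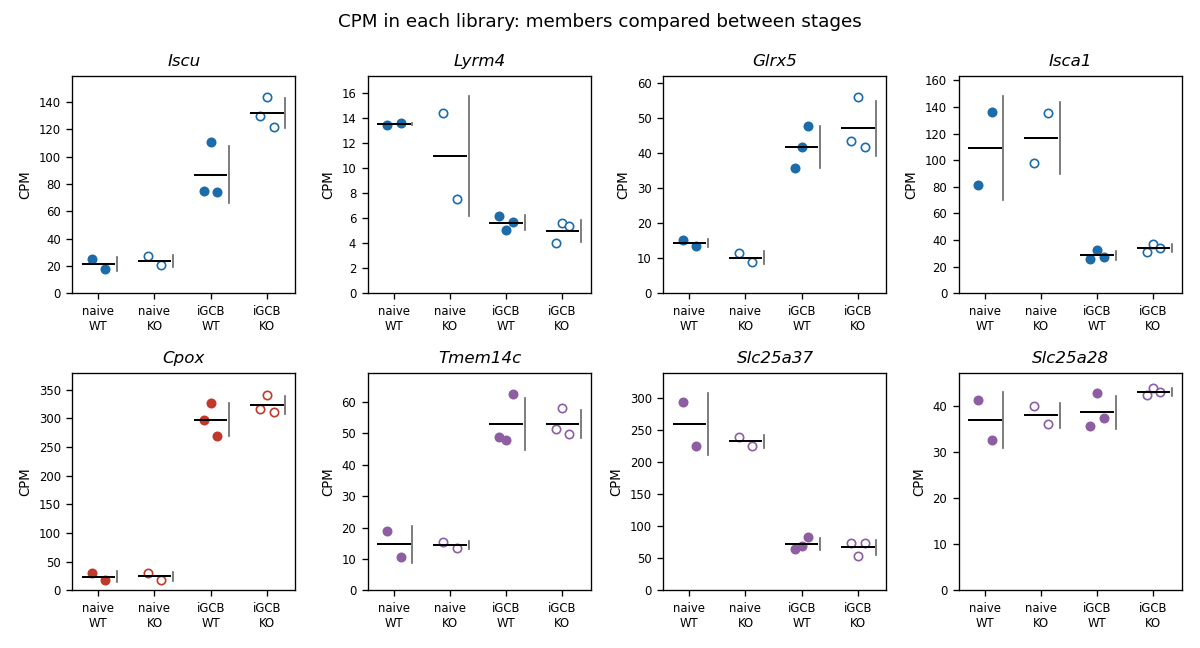
CPM of 8 genes in each library (points; filled WT, open KO), with the group mean (horizontal line) and SD (vertical bar) for naive WT, naive KO (n = 2 each), iGCB WT and iGCB KO cells (n = 3 each). Iscu, Glrx5, Cpox and Tmem14c are higher and Lyrm4, Isca1 and Slc25a37 lower in every iGCB library, and Slc25a28 lies between 32.7 and 43.8 CPM throughout.

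Compared by group, the median stage change in WT cells was 0.63 for mitochondrial assembly, 0.58 for cytosolic assembly, 0.68 for the heme enzymes and 0.060 for transport. The 8 core assembly genes had a median of 1.14, and the 6 late-acting genes one of 0.003. In KO cells the medians were 0.67, 0.35, 0.72 and 0.065 in the same order of groups. These medians describe the lists and carry no test. Of the 31 genes 9 in WT and 7 in KO cells had a value below 0, where 55.3% and 55.4% of all genes did. A fit without 1 naive library leaves 1 library in that group. The number of genes called in such fits was not set beside that of all genes and is left out. The calls lost in them are named with the genes.

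The promoter sequences of the genes that rose were read for motifs, since 14 genes rose in both genotypes. RefSeq promoter windows (build GRCm38.p6, the patch release of mm10) were given for 26 of the 31 genes, not for Iscu, Slc25a37, Hscb, Fech and Hspa9, and the 250 bases before each start were searched on both strands for CACGTG, the E-box read by Myc and related factors, and for CCAAT, the box read by NF-Y. The 2 motifs do not overlap in sequence. CACGTG was in 8 of 34 windows of the 26 genes (23.5%) and in 7.7% of the 15538 windows of genes tested. Counted by gene, it was in 23.1% of the 26 genes and in 9.2% of the genes tested with a window. CCAAT was in 58.8% of the windows of the list and in 34.8% of the windows of genes tested, and by gene in 57.7% and 39.8%. In the window nearest the annotated start, CACGTG was in 3 of the 11 genes with a window that rose in both genotypes (Nubpl, Alad, Urod), in 0 of 3 that fell in both, and in 2 of 8 that passed in neither (Mms19, Uros). The start of the window lies 777 bases from the annotated one in Uros, 700 in Alas1 and 600 in Nfu1. In Lyrm4 it lies 169 bases away and in Cpox 84. A motif just before the annotated start could be missed in these genes. CCAAT was in 8 of 11, 1 of 3 and 4 of 8 genes in the same order. A match is a description of the letters and not a measured site. The windows below are the 3 that rose and hold CACGTG, and that of Cpox, which rose most and holds neither motif. Each is written 5′ to 3′ on the strand of the gene and ends 1 base before the start. The E-box stands in capitals. The NF-Y box does too, and it reads ATTGG where it lies on the other strand, as in Alad and Urod. The windows are Alad at chr4:62519910-62520159 (minus strand), Urod at chr4:116994414-116994663 (minus strand), Nubpl at chr12:52097496-52097745 (plus strand) and Cpox at chr16:58669958-58670207 (plus strand).
Alad: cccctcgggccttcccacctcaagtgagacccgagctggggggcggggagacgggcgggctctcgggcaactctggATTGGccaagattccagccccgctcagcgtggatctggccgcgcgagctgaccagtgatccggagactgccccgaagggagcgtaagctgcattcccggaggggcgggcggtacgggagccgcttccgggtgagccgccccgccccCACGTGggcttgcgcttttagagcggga
Urod: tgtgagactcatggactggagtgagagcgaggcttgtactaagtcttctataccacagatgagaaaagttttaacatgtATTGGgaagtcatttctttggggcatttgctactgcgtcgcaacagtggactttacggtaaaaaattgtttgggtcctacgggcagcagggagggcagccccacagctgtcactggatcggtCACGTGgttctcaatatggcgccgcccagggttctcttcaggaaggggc
Nubpl: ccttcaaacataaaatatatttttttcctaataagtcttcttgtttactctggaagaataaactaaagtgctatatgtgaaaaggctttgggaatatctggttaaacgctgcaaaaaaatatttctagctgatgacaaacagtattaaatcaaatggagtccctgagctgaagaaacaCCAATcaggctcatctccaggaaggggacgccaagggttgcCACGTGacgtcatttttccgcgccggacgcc
Cpox: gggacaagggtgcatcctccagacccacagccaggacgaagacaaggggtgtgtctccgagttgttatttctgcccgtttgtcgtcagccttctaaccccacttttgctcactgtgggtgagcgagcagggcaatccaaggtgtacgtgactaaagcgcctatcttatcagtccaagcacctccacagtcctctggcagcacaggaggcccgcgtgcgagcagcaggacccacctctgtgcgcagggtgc
The E-box begins 28 bases before the start in Alad, 49 in Urod and 31 in Nubpl. Urod and Alad catalyse steps of the same pathway as Cpox, so neighbouring enzymes that rose together differ in this motif. GC content of these windows was 70.4% in Alad, 50.8% in Urod, 40.4% in Nubpl and 58.8% in Cpox.

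The second comparison set KO against WT at each stage, which asks whether loss of the iron chaperone Pcbp1 is accompanied by other transcript levels of the genes that use iron for cofactors. None of the 31 genes passed the threshold in either stage. In naive cells 0 of 31 passed with edgeR, 0 had an unadjusted p under 0.05 and 0 passed with DESeq2. Of all genes tested 0.0476% passed with edgeR and 5.55% had an unadjusted p under 0.05. In iGCB cells 0 of 31 passed with edgeR, where 1.27% of all genes passed. There 3 genes (Fdxr, Iscu and Ciapin1) had an unadjusted p under 0.05, against 9.76% of all genes, and 1 gene, Fdxr, passed with DESeq2. DESeq2 called more genes over the whole table than edgeR, as given with the sensitivity of the results. The edgeR share is therefore no background for the DESeq2 call. The median log2 fold change of the list was -0.078 in naive and -0.024 in iGCB cells, beside -0.048 and 0 for all genes tested.

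The intervals say how much change these libraries leave room for. In iGCB cells the 95% interval of the KO effect lay within 2-fold in both directions for 27 of 31 genes and within 1.5-fold for 15. In naive cells, with 2 libraries a group, it lay within 2-fold for 25 and within 1.5-fold for 5. The genes whose intervals reached beyond 2-fold in iGCB cells were all in the core mitochondrial machinery, where 4 of 8 lay within 2-fold, as against 23 of the other 23. A p that misses the threshold does not show that levels were alike.

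**Figure D4:**
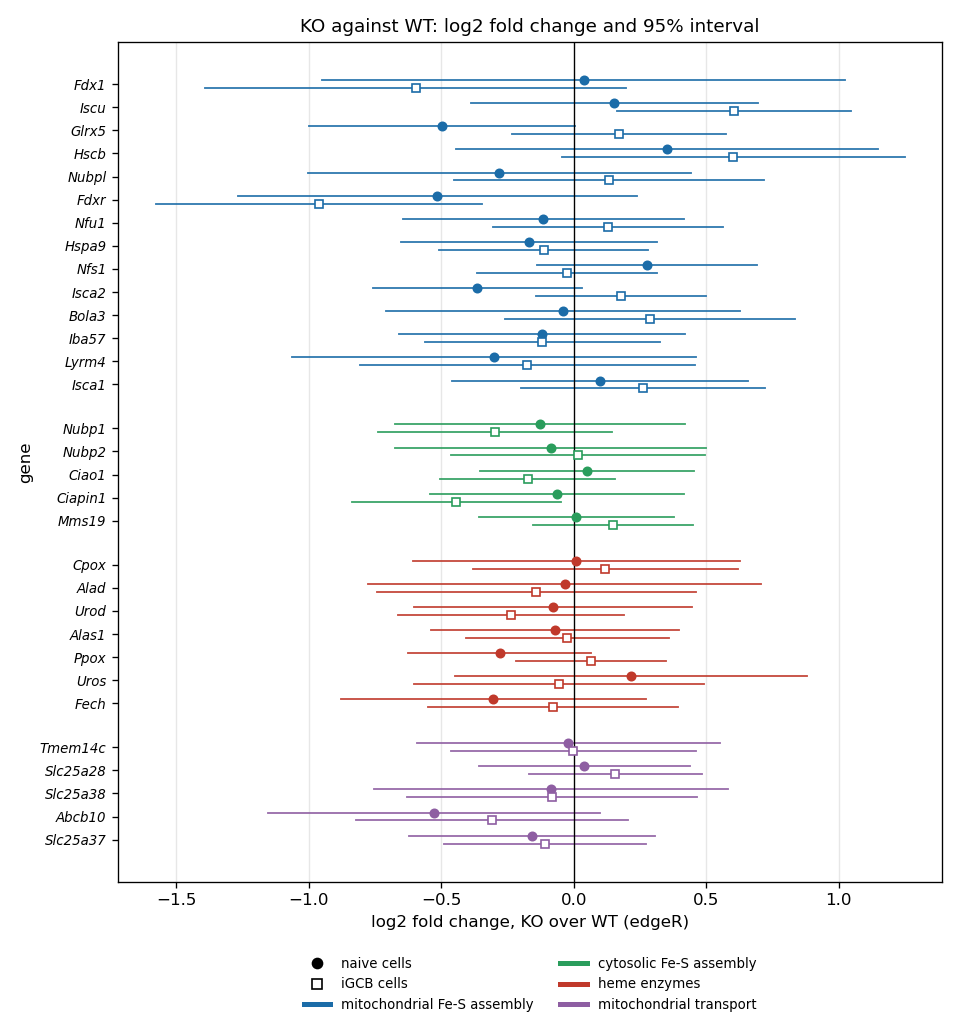
Log2 fold change of KO over WT for each gene in naive (filled circles) and iGCB cells (open squares), with 95% intervals from edgeR and colours for the 4 groups of genes. Most values lie between -0.5 and 0.5, Fdxr is lowest at -0.96 and Iscu highest at 0.60, both in iGCB cells.

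The genes of the mitochondrial core showed the widest range of KO values in iGCB cells, from -0.96 to 0.60. Fdxr, the ferredoxin reductase, was at 11.3, 13.0 and 19.0 CPM in iGCB WT and at 7.50, 6.80 and 7.88 CPM in iGCB KO cells. All KO libraries lay below all WT libraries. The log2 fold change was -0.96 (SE 0.28, 95% interval -1.58 to -0.35), with an unadjusted p of 0.00554 and an adjusted p of 0.183 (edgeR). It passed with DESeq2 (-0.97, adjusted p = 0.0237) and in an edgeR fit of the iGCB libraries alone (adjusted p = 0.0279), so whether Fdxr is called depends on the tool and on which libraries share the estimate of spread. DESeq2 and the fit of the iGCB libraries alone each called more genes over the whole table than the fit of all groups. The adjusted p of Fdxr ranged from 0.0237 to 0.595 over all alternatives. Without iGCB WT 3, the highest library, the value was -0.72. In naive cells Fdxr was at 9.22 and 6.45 CPM in WT and at 4.38 and 6.61 CPM in KO, which overlap, and the log2 fold change was -0.52 (SE 0.34, adjusted p = 1, edgeR).

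Its electron acceptor Fdx1 was at 8.23, 9.67 and 7.77 CPM in iGCB WT and at 5.04, 7.66 and 4.27 CPM in iGCB KO cells. These groups also did not overlap, with iGCB KO 2 only just below the lowest WT library. The log2 fold change was -0.60 (SE 0.36, adjusted p = 0.678, edgeR). In naive cells the value was 0.038 (SE 0.45).

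Iscu, the scaffold, was higher in each iGCB KO library (122 to 144 CPM) than in each iGCB WT library (74.3 to 111 CPM). The log2 fold change was 0.60 (SE 0.20, 95% interval 0.16 to 1.04), with an unadjusted p of 0.0118 and an adjusted p of 0.276 (edgeR), and with DESeq2 the adjusted p was 0.0716. With the replicate number as a block it passed, at 0.63 and an adjusted p of 0.0374 (edgeR). In naive cells it was 0.15 (SE 0.25), with overlapping groups. Hscb, which takes the cluster off the scaffold, was at 15.6, 27.0 and 21.6 CPM in iGCB WT and 28.2, 38.3 and 30.8 CPM in iGCB KO cells, which fitted to 0.60 on the log2 scale (SE 0.29, adjusted p = 0.557, edgeR). The iGCB groups of Hscb did not overlap, though iGCB WT 2 and iGCB KO 1 were close. Nfs1, Lyrm4 and Hspa9 had values of -0.024, -0.18 and -0.11 in iGCB cells.

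Among the late-acting genes the KO values in iGCB cells ran from -0.12 for Iba57 to 0.29 for Bola3. In naive cells the smallest unadjusted p of the list belonged to Glrx5 (0.0516) and Isca2 (0.0673). Glrx5 was at 15.2 and 13.5 CPM in naive WT and 11.4 and 8.85 CPM in naive KO cells, which fitted to -0.50 on the log2 scale (SE 0.23, adjusted p = 0.904, edgeR). Isca2 was at 35.4 and 36.7 CPM in naive WT and 30.7 and 25.3 CPM in naive KO cells, a value of -0.36 (SE 0.18, adjusted p = 0.948, edgeR). Both KO libraries lay below both WT libraries for each gene, as for 5 of the 31 genes and 12.7% of all genes, and 2 genes (Nfs1, Uros) lay higher without overlap, where 11.5% of all genes did. Within the female pair the log2 ratio of KO to WT was -0.38 for Glrx5 and -0.20 for Isca2, and within the male pair -0.56 and -0.52.

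In the cytosolic pathway Ciapin1 was at 26.4, 27.0 and 39.0 CPM in iGCB WT and 21.2, 23.3 and 23.4 CPM in iGCB KO cells. The groups did not overlap. The log2 fold change was -0.44 (SE 0.18, unadjusted p = 0.0307, adjusted p = 0.419, edgeR), and -0.24 without iGCB WT 3, the highest library. Nubp1 had a value of -0.30 (SE 0.20, adjusted p = 0.73, edgeR), with overlapping groups. Mms19 had one of 0.15 (SE 0.14), with KO libraries at 80.0 to 86.6 CPM above WT libraries at 71.4 to 78.5 CPM. In naive cells the 5 cytosolic genes lay between -0.13 and 0.051.

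The heme enzymes showed the narrowest range in iGCB cells. Their KO values ran from -0.24 for Urod (SE 0.19) to 0.12 for Cpox (SE 0.23), all 7 with overlapping groups and with intervals within 2-fold. The interval of Cpox was -0.38 to 0.62. That of Alas1, the rate-limiting enzyme, was -0.41 to 0.36 around a value of -0.024. In naive cells the values ran from -0.30 for Fech (SE 0.26) to 0.22 for Uros (SE 0.30). Ppox was at 49.1 and 44.0 CPM in naive WT and 40.2 and 36.4 CPM in naive KO, a value of -0.28 (SE 0.16, adjusted p = 1, edgeR). The value of Fech turned to 0.17 without naive WT 2, which had 38.9 CPM against 21.6 to 24.5 CPM in the other naive libraries.

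Of the transport genes Abcb10 had the lowest values, -0.53 (SE 0.28, adjusted p = 1, edgeR) in naive and -0.31 (SE 0.23, adjusted p = 0.762, edgeR) in iGCB cells, with overlapping groups at both stages. Slc25a37 had values of -0.16 (SE 0.21) and -0.11 (SE 0.17), and Slc25a28 values of 0.039 (SE 0.18) and 0.16 (SE 0.15), so neither mitoferrin passed at either stage. The intervals of both mitoferrins lay within 2-fold at both stages.

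**Figure D5:**
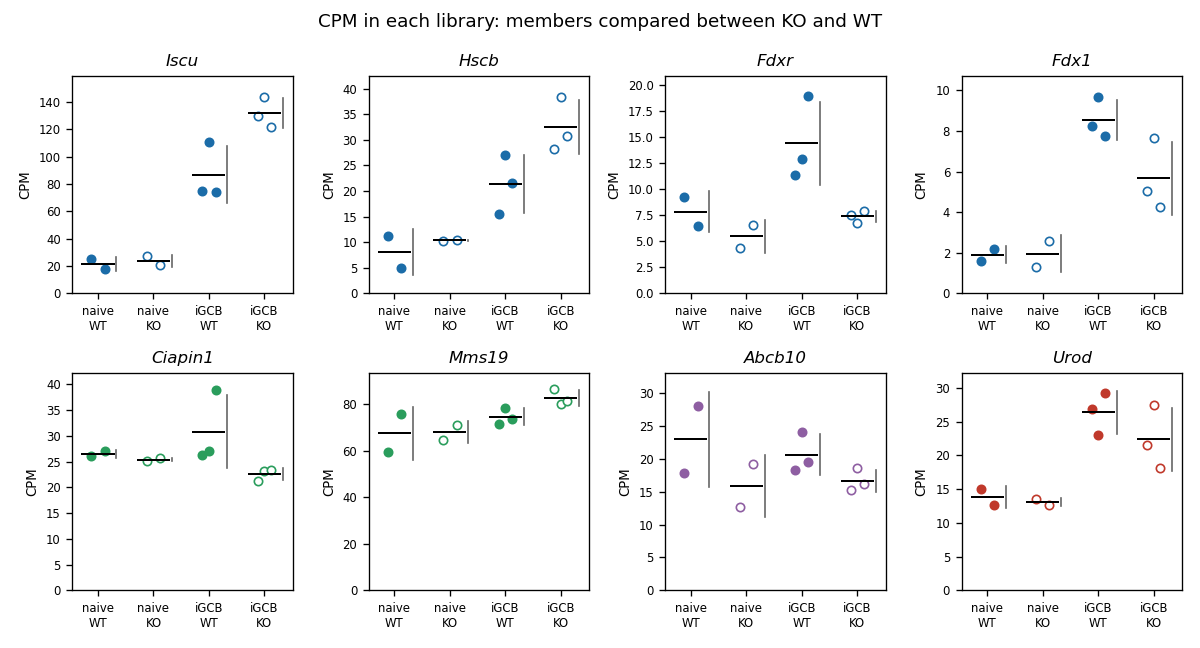
CPM of 8 genes in each library (points; filled WT, open KO), with the group mean (horizontal line) and SD (vertical bar) for naive WT, naive KO (n = 2 each), iGCB WT and iGCB KO cells (n = 3 each). In iGCB cells the KO points lie above the WT points for Iscu, Hscb and Mms19 and below them for Fdxr, Fdx1 and Ciapin1, and the groups overlap for Abcb10 and Urod.

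In iGCB cells the KO and WT groups did not overlap for 3 genes that were higher (Iscu, Hscb, Mms19) and 3 that were lower (Fdx1, Fdxr, Ciapin1), where 10.2% of all genes were higher and 10.3% lower in this sense. By group, the median KO value in iGCB cells was 0.13 for mitochondrial assembly, -0.17 for cytosolic assembly, -0.054 for heme enzymes and -0.081 for transport. In naive cells the medians were -0.12, -0.063, -0.071 and -0.085. The KO value had the same sign at both stages for 20 of the 31 genes, 14 of them below 0 and 6 above 0. The share of all genes with the same sign at both stages was not counted, so no agreement is read from this. Of all genes 54.8% lay below 0 in naive and 47.2% in iGCB cells, and the 2 KO comparisons share no library.

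Whether the KO effect differed between the stages was tested as the difference of the 2 effects. None of the 31 genes passed with edgeR, where 0.0333% of all genes did. With DESeq2 0 passed. An unadjusted p under 0.05 was reached by 2 genes, Isca2 with 0.54 (SE 0.23, adjusted p = 0.787, edgeR) and Glrx5 with 0.67 (SE 0.29, adjusted p = 0.797, edgeR), where 6.06% of all genes reached it. Both had KO values below 0 in naive and above 0 in iGCB cells. For Fdxr the difference was -0.45 (SE 0.44), for Iscu 0.45 (SE 0.32), for Ppox 0.35 (SE 0.20) and for Abcb10 0.22 (SE 0.37).

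Other genes of the same pathways were read from 2 further lists. Of 26 other genes of iron-sulfur assembly and of heme synthesis and handling, 12 rose and 3 fell between the stages in WT cells, where 24.7% of all genes were higher and 31.7% lower. Flvcr1, a membrane transporter listed here under heme handling, rose by 3.92 (SE 0.24, adjusted p = 7.88e-07, edgeR), from 14.6 and 13.3 CPM to 172, 218 and 243 CPM. Its transport of heme was not measured. Alas2, the erythroid form of the first heme enzyme, was at 2.85 and 7.69 CPM in naive WT and at 0.0279 to 0.117 CPM in iGCB WT libraries, and fell by 6.30 (SE 0.71). Hebp1, a heme-binding protein, fell by 4.75 (SE 0.88), from 5.61 and 4.03 CPM to 0.111 to 0.296 CPM. Alas2 is itself 1 of the 11 erythroid markers. The marker sums given above moved between the same libraries, and the part of those cells in the change of Alas2 and Hebp1 was not tested.

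Of 28 enzymes that carry iron-sulfur clusters, 16 rose and 2 fell between the stages in WT cells, beside the same 24.7% and 31.7% of all genes. Cisd1, a cluster protein of the outer mitochondrial membrane, rose by 4.79 (SE 0.46, adjusted p = 1.6e-05, edgeR), from 3.83 and 1.87 CPM to 68.0, 78.8 and 92.6 CPM. Dna2, a helicase and nuclease of DNA replication, rose by 2.61 (SE 0.29). Rsad2, the antiviral enzyme viperin, fell by 5.82 (SE 0.60), from 21.6 and 11.4 CPM to at most 0.334 CPM.

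In the KO comparisons none of these 54 genes passed with edgeR. In iGCB cells 5 of the 26 and 2 of the 28 had an unadjusted p under 0.05, where 9.76% of all genes did. They are named after their values were seen. Bola2, which takes part in cytosolic cluster delivery, had a value of 0.66 (SE 0.26, adjusted p = 0.401, edgeR), and Gfer, a sulfhydryl oxidase, one of 0.47 (SE 0.17). Alas2, at 0.176 to 0.257 CPM in iGCB KO, had one of 1.64 (SE 0.68). Blvrb and Flvcr1 had values of -0.74 (SE 0.28) and -0.51 (SE 0.18). Pold1, the catalytic subunit of DNA polymerase delta, had -0.48 (SE 0.14, adjusted p = 0.199, edgeR) and Rfesd 0.58 (SE 0.22). In naive cells 0 of the 26 and 3 of the 28 (Rsad2, Uqcrfs1 and Pold1) had an unadjusted p under 0.05, where 5.55% of all genes did.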

How the data were processed

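RNA-seq counts were deposited by the authors as whole numbers per gene symbol, made with featureCounts on mm10 per the submitters' processing notes; the aligner, annotation and strand setting are unnamed. Among counts from 1 to 20, 17.7% to 26.9% were odd, so a count may not be an independent fragment. The reason was not tested. Groups came from the labels. Here genes were filtered with filterByExpr (minimum count 10), scaled with TMM and fitted in 1 edgeR 4.0.16 quasi-likelihood model over the 4 groups (R 4.3.3, 6 residual degrees of freedom). P-values were two-sided and Benjamini-Hochberg adjusted over 21010 genes. The SE is the absolute log2 fold change over the root of F. Positions and exon lengths came from GENCODE M21, which held 96.2% of the symbols. The pipeline was tested on simulated data. KO changes were simulated in iGCB cells only, so sensitivity to KO changes in naive cells was not tested.

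The 31 genes, the 2 further lists and the markers were chosen with earlier results of these data known. Every member was accounted for. Detail was given to the 3 highest and 3 lowest stage changes past the threshold per group, the 2 smallest p per group in the KO comparisons, and relatives together. From each further list the 3 largest WT stage changes were taken. Replicates differed by more than counting error (chi-square per degree of freedom 24.4 to 236). Alternatives were library-size scaling, DESeq2 1.42.0, no filter, a replicate block, a sex term, a fit of the compared groups alone and leaving out each library. Protein sequences were not used here.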

Additional observations from a re-analysis of the deposited data

How the results depend on the processing

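For genes chosen by the naming rule, 659 values were set against an alternative: 624 kept direction and side of the threshold, 11 changed sign, 21 lost and 3 gained a call. That rule leaves out several weaker stage calls. Over all members called between the stages, 35 of 231 comparisons lost the call in WT (9 of 21 genes) and 18 of 209 in KO cells (9 of 19 genes). Without a low-count filter, with DESeq2, with a sex term and with the replicate block, KO against WT in naive cells gave 242, 171, 57 and 31 genes over the whole table (10 as reported), and 0 in a fit of the 2 naive groups alone. KO against WT in iGCB cells gave 841, 832, 640 and 589 (266 as reported), and 863 in a fit of the 2 iGCB groups alone. The difference of KO effects gave 373, 242, 108 and 74 (7 as reported). Leaving out 1 library at a time gave 12 to 44, 41 to 184 and 0 to 65. The counts moved by over 1.5 times without naive WT 1 (24), naive WT 2 (44) and naive KO 2 (20) in naive cells, and in iGCB cells without WT 1 (155), WT 3 (96), KO 1 (82), KO 2 (42) and KO 3 (41). The difference gave 65 without naive WT 1, 31 without naive WT 2, 20 without naive KO 2 and at most 2 without naive KO 1 or any 1 iGCB library. The cause was not tested.

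Of the 31 genes, 1 was called in KO against WT in iGCB cells with DESeq2 and in the fit of the iGCB groups alone (Fdxr in each), and 1 with the replicate block (Iscu, 0.63, adjusted p = 0.0374, edgeR). Same-numbered naive libraries correlated at 0.64 after group means were removed (8980 genes), and iGCB ones at 0.49, -0.15 and 0.01. Between the stages they correlated at -0.14 and 0.13 (WT) and at -0.1 and -0.17 (KO). Same-numbered naive libraries are also of 1 sex. No source says what libraries of 1 number share, so the block was not taken as a pairing. With the block 12 of the 31 genes passed in iGCB against naive WT cells (9 higher, 3 lower) and 14 in KO cells (12 higher, 2 lower). The share of all genes that passed with the block was not set beside these counts, so they are not read against other genes. Lost in WT were Nfs1, Hspa9, Fdxr, Iba57, Nfu1, Nubpl, Ciao1, Nubp2 and Alas1 (adjusted p from 0.0534 to 0.232, edgeR), and in KO cells Lyrm4, Hspa9, Isca2, Iba57 and Alas1 (0.062 to 0.226, edgeR).

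Iba57 also lost its call without the filter (adjusted p = 0.13 in WT, 0.0885 in KO, edgeR), and in WT without naive WT 2, iGCB WT 1 or iGCB WT 2 and in KO without naive KO 1, iGCB KO 2 or iGCB KO 3. In a fit of the 2 WT groups alone Nfs1, Hspa9, Fdxr, Iba57 and Nfu1 missed (0.0547 to 0.0662), with a sex term Fdxr (0.0575) and without the filter Nfs1 (0.0672). Scaling by library size alone moved the naive KO median to 0.018 for mitochondrial and 0.070 for cytosolic assembly, with all genes at 0.074. It also gave 0.001 for Nubp1 and 0.060 for Nubp2. In iGCB against naive KO cells the median of all genes was -0.357 with library size and -0.362 with DESeq2 (-0.256 as reported). For the difference, library size gave medians of -0.102 for all genes and 0.064 for mitochondrial assembly and a value of -0.024 for Slc25a28. Leaving out 1 library gave naive KO values of -0.389 to 0.081 for Nubp1, -0.438 to 0.361 for Nubp2, -0.675 to 0.171 for Fech and -0.345 to 0.039 for Slc25a37, and differences of -0.133 to 0.56 for Abcb10 and -0.054 to 0.286 for Slc25a28. None of these were called.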
